A study of Mus musculus with 3 samples.

Results

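Clusters 0 and 1 are the largest groups of inhibitory neuron nuclei in a single-nucleus RNA sequencing (snRNA-seq) data set of the mouse olfactory bulb (OB), and their transcripts were compared here within each of 3 mice. Their members are the nuclei that carry cluster number 0 or 1 in the table deposited with the counts, 7681 in cluster 0 and 4754 in cluster 1, together 12435 of the 31703 nuclei in 22 clusters. The nuclei came from adult male C57Bl/6 mice, and there was no untreated group. A retrograde virus that makes a green fluorescent histone (retroAAV-CAG-H2B-GFP, driven by a promoter active in most cell types) had been delivered to 2 targets of bulb output, the piriform cortex (PCx) and the anterior olfactory nucleus (AON), and GFP-positive nuclei stained for DNA with DRAQ5 were collected from the bulb of the injected side by fluorescence-activated nuclei sorting (FANS). Each library holds the nuclei of 1 mouse, and each mouse was prepared separately. The spread between libraries therefore joins differences between animals with those of preparation, which cannot be told apart. Raw UMI counts (unique molecular identifiers, of which each RNA molecule carries 1) were summed per mouse over cluster 0 and, separately, over cluster 1. Since the clusters had been formed on the same counts, the tests below say how evenly a gene differed over the mice, and do not test that the clusters exist.

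Most neurons of the OB are inhibitory. Granule cells, the most numerous, have no axon and release GABA from their dendrites onto mitral and tufted cells, the projection neurons, while periglomerular cells do so around the glomeruli, where olfactory axons end. Both kinds are replaced through life by young neurons that migrate into the bulb, and subtypes of granule cells are told apart by genes such as Calb2, Tpbg, Camk4 and Cpne4.

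The sums over cluster 0 held 9593947, 44969722 and 9118404 UMIs in mice 1, 2 and 3, and those over cluster 1 held 6293109, 30694695 and 5453073. Cluster 0 made up 62.2% (exact 95% binomial interval 60.04 to 64.2), 61.4% (60.3 to 62.4) and 63.6% (61.1 to 66.1) of the nuclei of both clusters, a mean of 62.4% ± 1.13 (SD, n = 3 mice). The median nucleus held 6920.0, 7494.5 and 9001 UMIs in cluster 0 and 7233.5, 7986 and 9230.0 in cluster 1. The log2 ratio of these medians was -0.064 ± 0.028 (SD, n = 3 mice), below 0 in all 3 mice, with p = 0.25 in an exact paired permutation test (two-sided), the smallest p that 3 pairs allow. Among the nuclei of the 2 clusters, 6 barcodes were shared by mice 1 and 2, 0 by mice 1 and 3, and 3 by mice 2 and 3.

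Both clusters carried the genes of inhibitory neurons and hardly those of projection neurons. The summed level of Gad1, Gad2 and Slc32a1, which make GABA and load it into vesicles, was 1703 UMIs per 1000000 UMIs of a library (CPM; range over mice 1469 to 1977) in cluster 0 and 935 (833 to 992) in cluster 1. The summed level of 5 projection neuron genes, Slc17a6, Slc17a7, Tbx21, Eomes and Cdhr1, was 51.2 CPM in cluster 0 and 54.5 in cluster 1, against 939, 917 and 714 in clusters 2, 4 and 5. The summed level of 5 oligodendrocyte genes (Mog, Mag, Mobp, Mal and Cldn11) was 19.1 and 21.2 CPM in clusters 0 and 1, and that of 6 microglia genes (Cx3cr1, Csf1r, C1qa, C1qb, P2ry12 and Tmem119) 36.7 and 39.1. The astrocyte genes Aqp4, Gja1, Slc1a3, Aldh1l1 and Agt summed to 35.1 CPM in cluster 0 and 74.3 in cluster 1. Slc1a3 alone held 24.1 and 61.3 CPM of these sums.

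The comparison asked which transcripts differ between these inhibitory clusters. Of 14442 genes tested, 315 were higher in cluster 0 and 763 were higher in cluster 1, where a call required an adjusted p below 0.05 together with a log2 fold change beyond 1 in size (edgeR's quasi-likelihood test with the mouse as a block, Benjamini-Hochberg adjustment over all genes tested). These are 2.18% and 5.28% of the tested genes, and 7.46% in either direction. Log2 fold changes are cluster 0 minus cluster 1 throughout, so that positive values mean higher in cluster 0. A single value in parentheses after a gene name is its log2 fold change. The median of these changes over all tested genes was 0.01. All 315 genes higher in cluster 0 and 755 of the 763 higher in cluster 1 differed in the same direction in each mouse, and for 300 and 735 of them the 3 libraries of one cluster lay wholly above the 3 of the other. Over all tested genes such a lack of overlap was found in 13.8% with cluster 0 above cluster 1, in 19.2% with cluster 1 above cluster 0, and in 33% in either direction. Larger differences were more frequent towards cluster 1: an absolute log2 fold change above 2 was reached by 34 genes higher in cluster 0 and by 213 higher in cluster 1, and one above 3 by 5 and 50. The adjusted p alone, with no limit on the size, was passed by 2852 genes higher in cluster 0 (19.7%) and 2517 higher in cluster 1 (17.4%), 37.2% in either direction. No called gene was without UMIs in the lower cluster.

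**Figure D1:**
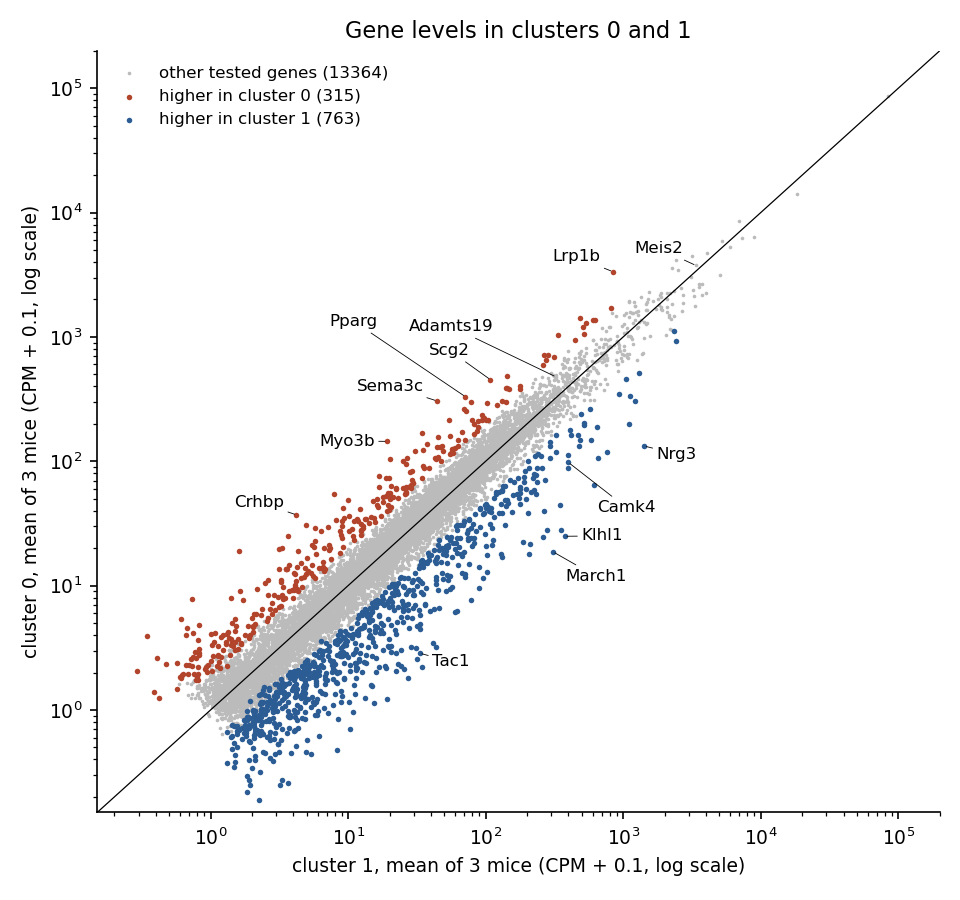
Mean level of each of the 14442 tested genes over 3 mice in cluster 1 (x axis) and in cluster 0 (y axis), in CPM with 0.1 added, on log scales; red points are the 315 genes called higher in cluster 0 and blue points the 763 called higher in cluster 1. The blue points reach farther from the line of equal levels than the red ones, with 50 against 5 genes beyond a log2 fold change of 3, and Adamts19 lies among the genes not called.

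The gene that rose most towards cluster 0 among those with at least 20 CPM was Crhbp, which encodes the binding protein of corticotropin-releasing hormone. Crhbp held 43.7, 27.3 and 39.9 CPM in cluster 0 of mice 1, 2 and 3 and 2.86, 4.50 and 4.95 in cluster 1 (log2 fold change 2.95, SE 0.16, adjusted p = 2.2e-10). Crhr1, the receptor gene of the same hormone, held 61.3, 56.9 and 68.3 CPM against 13.5, 19.9 and 16.9 (log2 fold change 1.801, SE 0.11, adjusted p = 1.1e-09). For both genes all 3 libraries of cluster 0 lay above all 3 of cluster 1, while the hormone gene Crh had at most 1.75 CPM in any of the 6 libraries (-0.07, adjusted p = 0.90).

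The secreted semaphorins Sema3c and Sema3e, which guide axons and cell contacts, were both among the leading genes of cluster 0. Sema3c (chr5:17574281-17730268, GRCm38, plus strand) held 322, 286 and 309 CPM in cluster 0 and 42.7, 40.9 and 48.6 in cluster 1 (log2 fold change 2.79, SE 0.07, adjusted p = 2.5e-14), and Sema3e (chr5:14025276-14256689, plus strand) held 181, 131 and 189 against 42.6, 27.9 and 32.1 (log2 fold change 2.27, SE 0.09, adjusted p = 2.5e-12). The libraries of Sema3c were close together within a cluster and did not overlap between clusters. Gm4128, an annotated antisense gene that lies over Sema3e, moved with it (29.7, 18.9 and 26.4 against 3.81, 2.93 and 3.85 CPM, 2.76). Pparg, a nuclear receptor for fatty acids, held 306, 293 and 393 CPM against 70.1, 69.9 and 73.4 (log2 fold change 2.19, SE 0.08, adjusted p = 1.9e-12), and Gm44079, antisense to Pparg, held 25.3, 28.6 and 32.6 against 4.45, 4.89 and 7.52 (2.42). Whether the counting used strand is not given in the sources used here, so that reads of such antisense genes and of their partners cannot be told apart.

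The other leading genes of cluster 0 were Myo3b (a class III myosin), Scgn (the calcium-binding protein secretagogin), Mro, Rai14, Areg and Th. Myo3b held 111, 140.2 and 182 CPM against 18.9, 21.3 and 17.1 (log2 fold change 2.84, SE 0.12, adjusted p = 4.0e-12). Scgn held 52.2, 59.97 and 50.8 against 3.97, 9.68 and 9.72 (log2 fold change 2.76, SE 0.14, adjusted p = 7.0e-11). Areg encodes amphiregulin, a ligand of the epidermal growth factor receptor, and held 16.8, 18.3 and 25.3 CPM against 1.43, 5.28 and 2.93 (log2 fold change 2.32, SE 0.22, adjusted p = 2.1e-07). The receptor gene Egfr was called in the same direction, with 10.7, 9.34 and 12.7 CPM against 3.18, 3.68 and 2.57 (log2 fold change 1.63, SE 0.20, adjusted p = 4.9e-06). None of these genes overlapped between the clusters, although Areg and Egfr rest on few UMIs per library. Rai14 and Mro had log2 fold changes of 2.36 and 2.55. Also marked in the plot of levels among the genes higher in cluster 0 was Lrp1b, a large receptor of the low-density lipoprotein receptor family, with 2974, 3256 and 3817 CPM against 646, 734 and 1131 (log2 fold change 2.04, SE 0.08, adjusted p = 3.7e-12); it was singled out after its values were seen.

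The leading genes of cluster 1 differed more steeply. Klhl1, an actin-binding Kelch protein of neurons (chr14:96102736-96519102, minus strand), held 389, 286 and 454 CPM in cluster 1 of the 3 mice and 24.3, 22.7 and 27.5 in cluster 0 (log2 fold change -3.87, SE 0.08, adjusted p = 2.4e-15). Nrg3, a ligand of the receptor kinase ErbB4 (chr14:38368952-39473088, minus strand), held 1285, 1698 and 1284 against 111, 167 and 119 CPM (log2 fold change -3.43, SE 0.08, adjusted p = 2.4e-15). Every library of cluster 1 exceeded every library of cluster 0 at both loci, and Erbb4 itself, with 1642, 1101 and 1523 CPM in cluster 1 and 1004, 889 and 1043 in cluster 0, had a log2 fold change of -0.52 and was not called. The annotated antisense genes Gm20641, Nrg3os and Gm20642 lie over Nrg3.

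March1, a membrane-bound ubiquitin ligase, held 286, 198 and 443 CPM in cluster 1 and 17.1, 16.9 and 21.8 in cluster 0 (log2 fold change -3.93, SE 0.11, adjusted p = 4.3e-14). Its spread within cluster 1 was wider than that of Ankfn1, which held 333, 318 and 401 against 28.04, 24.5 and 31.9 CPM (log2 fold change -3.65, SE 0.08, adjusted p = 2.4e-15). The sulfotransferase gene Hs3st4, which modifies heparan sulfate chains, held 216, 182 and 219 against 19.6, 18.8 and 14.7 (log2 fold change -3.49, SE 0.09, adjusted p = 2.5e-14). These 3 genes did not overlap between clusters. Mdga1, a membrane-anchored protein that binds neuroligins, held 76.6, 70.3 and 85.8 against 5.73, 8.18 and 8.66 (-3.30). Ror2, a receptor for Wnt5a, held 41.3, 31.9 and 51.5 against 3.13, 2.56 and 4.39 (-3.64). The remaining leaders, Vat1l, Dchs2 (a large cadherin), 1700011I03Rik, Sncaip (synphilin-1) and Cald1 (caldesmon), had log2 fold changes of -3.90, -3.90, -3.67, -3.66 and -3.37, from at most 3.98 CPM in any library of cluster 0.

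**Figure D2:**
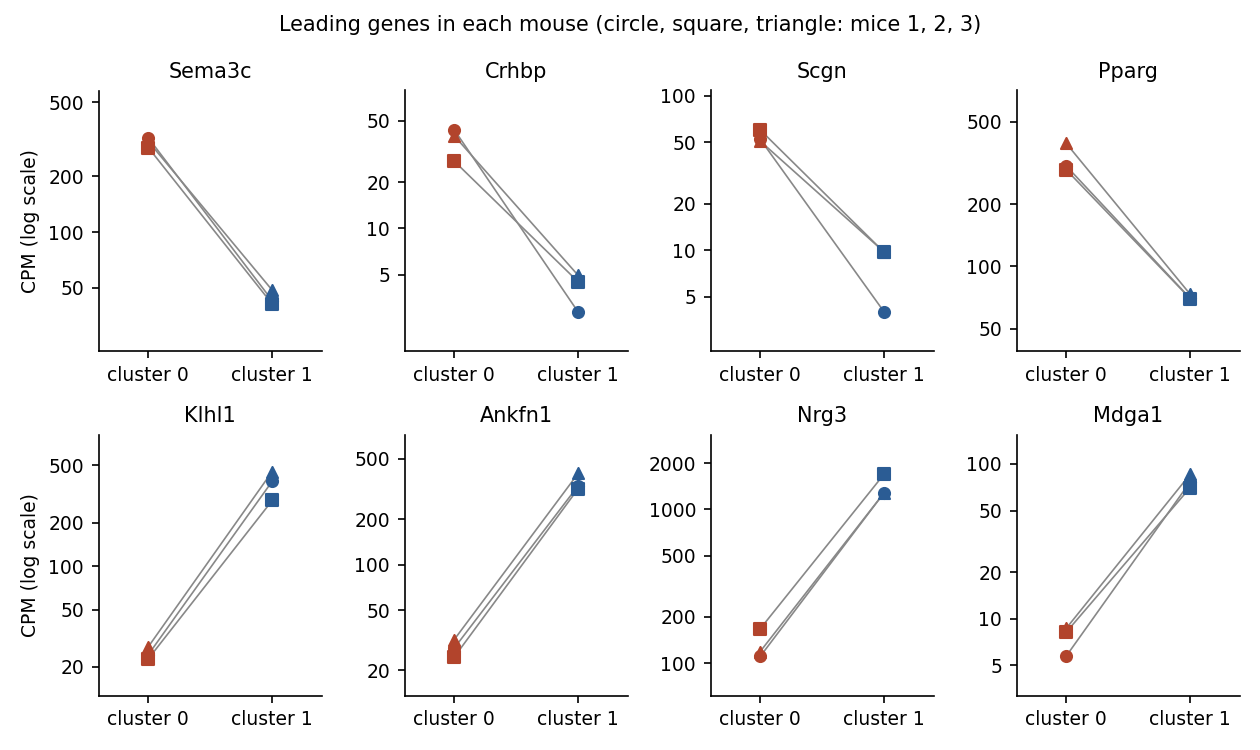
Level (CPM, log scale) of 4 genes that lead towards cluster 0 (upper row) and 4 that lead towards cluster 1 (lower row), with a line joining the 2 clusters of each mouse; circles, squares and triangles are mice 1, 2 and 3. All lines of a row run in the same direction and the clusters do not overlap for any of the 8 genes.

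Adamts19, Camk4 and Sv2c mark these clusters among all clusters of the bulb, and only Camk4 of the 3 was called between them. Adamts19, a secreted protease, held 352, 533 and 546 CPM in cluster 0 and 228, 384 and 361 in cluster 1 (log2 fold change 0.56, SE 0.07, adjusted p = 4.1e-06). The libraries of Adamts19 overlapped between clusters, its difference stayed below the limit of size, and the 2 clusters ranked first and second in its mean level among all 22. Sv2c, a synaptic vesicle glycoprotein, held 150.2, 207 and 199 CPM in cluster 1 and 93.6, 110.3 and 99.9 in cluster 0 (log2 fold change -0.87, SE 0.07, adjusted p = 3.1e-08), not called either, with cluster 1 first and cluster 0 second of the 22. Camk4, a calcium/calmodulin-dependent kinase, held 436, 379 and 383 in cluster 1 and 102, 121 and 71.2 in cluster 0 (log2 fold change -2.04, SE 0.10, adjusted p = 3.5e-11) and was called, with no overlap.

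Set beside the other inhibitory clusters, and given as means ± SD over 3 mice with no test, several leading genes of cluster 0 were as high or higher in cluster 3. Sema3c was at 306 ± 18.4 CPM in cluster 0 and 403 ± 56.7 in cluster 3, against 44.1 ± 4.01 in cluster 1 and 30.5 ± 5.50 in cluster 6. Pparg was at 330.4 ± 54.4 CPM in cluster 0 and 583 ± 47.6 in cluster 3. Sema3e and Th had their highest means in cluster 6, at 1079 ± 83.3 and 222 ± 61.2 CPM. Scgn and Myo3b were highest in cluster 0 of all 22 clusters, at 54.3 ± 4.95 and 144 ± 35.4 CPM, although cluster 3 also held 112 ± 46.9 CPM of Myo3b. Of the leading genes of cluster 1, Klhl1 and Nrg3 had higher means in some other clusters. Klhl1 reached 1605 ± 385 CPM in cluster 10 and 376 ± 84.8 in cluster 1. Nrg3 was at 3373 ± 155, 3160.0 ± 1739.7 and 3002 ± 119 CPM in clusters 6, 8 and 10, so that its level in cluster 0, 132 ± 30.6, and in cluster 3, 87.6 ± 17.1, was the low one. Ankfn1 had its highest mean of all clusters in cluster 1.

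**Figure D3:**
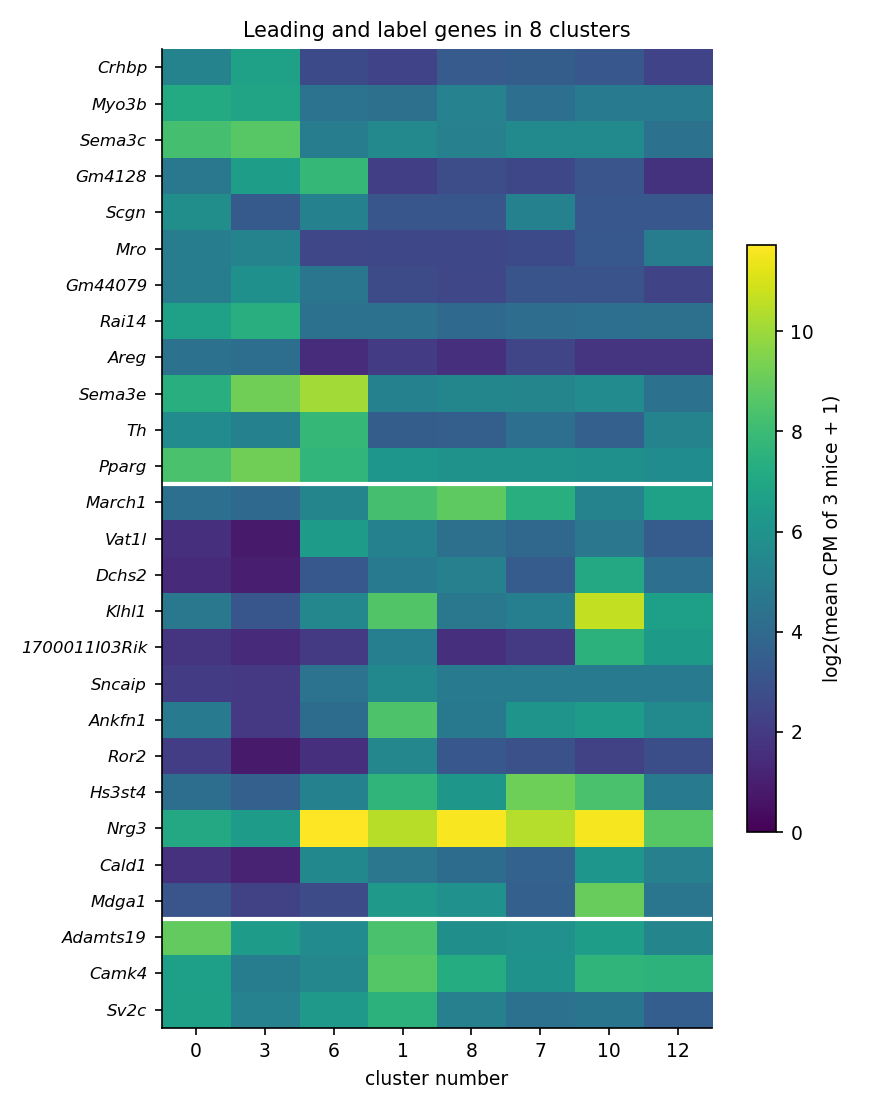
Mean level over 3 mice, as log2(CPM + 1), of the 12 leading genes of cluster 0 (top block), the 12 of cluster 1 (middle block) and Adamts19, Camk4 and Sv2c (bottom block) in 8 clusters, numbered as deposited. Sema3c, Pparg and Crhbp are high in cluster 3 as well as in cluster 0, while Nrg3 is high in clusters 6, 8 and 10 as well as in cluster 1.

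In single nuclei, each thinned to 3000 UMIs so that depth was equal, the leading genes had a UMI in a part of the nuclei of their cluster. Nuclei without a UMI at this depth may still express the gene, so that these shares set no limit on the part that does. Of the nuclei, 7552 of cluster 0 and 4632 of cluster 1 were deep enough, with 36, 84 and 9 nuclei of cluster 0 left out in mice 1, 2 and 3, and 50, 64 and 8 of cluster 1. Sema3c had a UMI in 41.5% of cluster 0 and 6.99% of cluster 1 nuclei (without thinning 55.9% and 13.7%). Free RNA gives UMIs in nuclei that do not express a gene, and in the oligodendrocyte-marker cluster 16 and the microglia-marker cluster 20 the thinned shares of Sema3c were 5.75% and 10.99%, so that the share in cluster 1 lay within this background. The median depths before thinning were 7563 and 8006.5 UMIs in clusters 0 and 1, and 5441 and 3405 in clusters 16 and 20. Klhl1 had a UMI in 38.99% of cluster 1 and 4.98% of cluster 0 nuclei (without thinning 51.7% and 10.4%), with 6.90% and 6.59% in clusters 16 and 20. Nrg3 had a UMI in 64.7% and 18.9% (without thinning 73.2% and 31.01%), where the background was higher, at 22.6% and 35.2%. For Klhl1 and Nrg3 it was cluster 0 that did not exceed the background. Camk4 was found in 52.5% of cluster 1 and 20.3% of cluster 0 nuclei (without thinning 71.9% and 32.6%), both above its 5.36% and 12.1% in clusters 16 and 20. March1 cannot be read this way, as clusters 16 and 20 held it in 49.4% and 61.5% of nuclei, above the 24.3% of cluster 1 (without thinning 33.3%).

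Taken as sets, the 12 leading genes of each cluster separated most nuclei, as a description of the genes chosen for that difference. Nuclei of cluster 0 with more UMIs of the set of cluster 0 than of the other set made up 75.9% (exact 95% interval 74.9 to 76.8), and 11.6% had more of the set of cluster 1. Of the nuclei of cluster 1, 81.8% (80.6 to 82.9) had more of their own set and 8.27% more of the other. The share with more of their own set was 78.02%, 74.8% and 79.3% in mice 1, 2 and 3 for cluster 0 and 83.02%, 81.6% and 80.98% for cluster 1. Intervals of shares cover counting error only.

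Groups of genes by function were then counted from lists, each read against the 2.18% and 5.28% of all tested genes called higher in clusters 0 and 1, with no test of a list. By the adjusted p alone the shares over all tested genes were 19.7% and 17.4%, and counts of members by the adjusted p alone are read against these. Among lists with at least 10 tested members, immediate early genes had the largest share called towards cluster 0. With all mice in the test, immature neuron genes and axon guidance genes had the largest shares towards cluster 1, which lay close together.

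**Figure D4:**
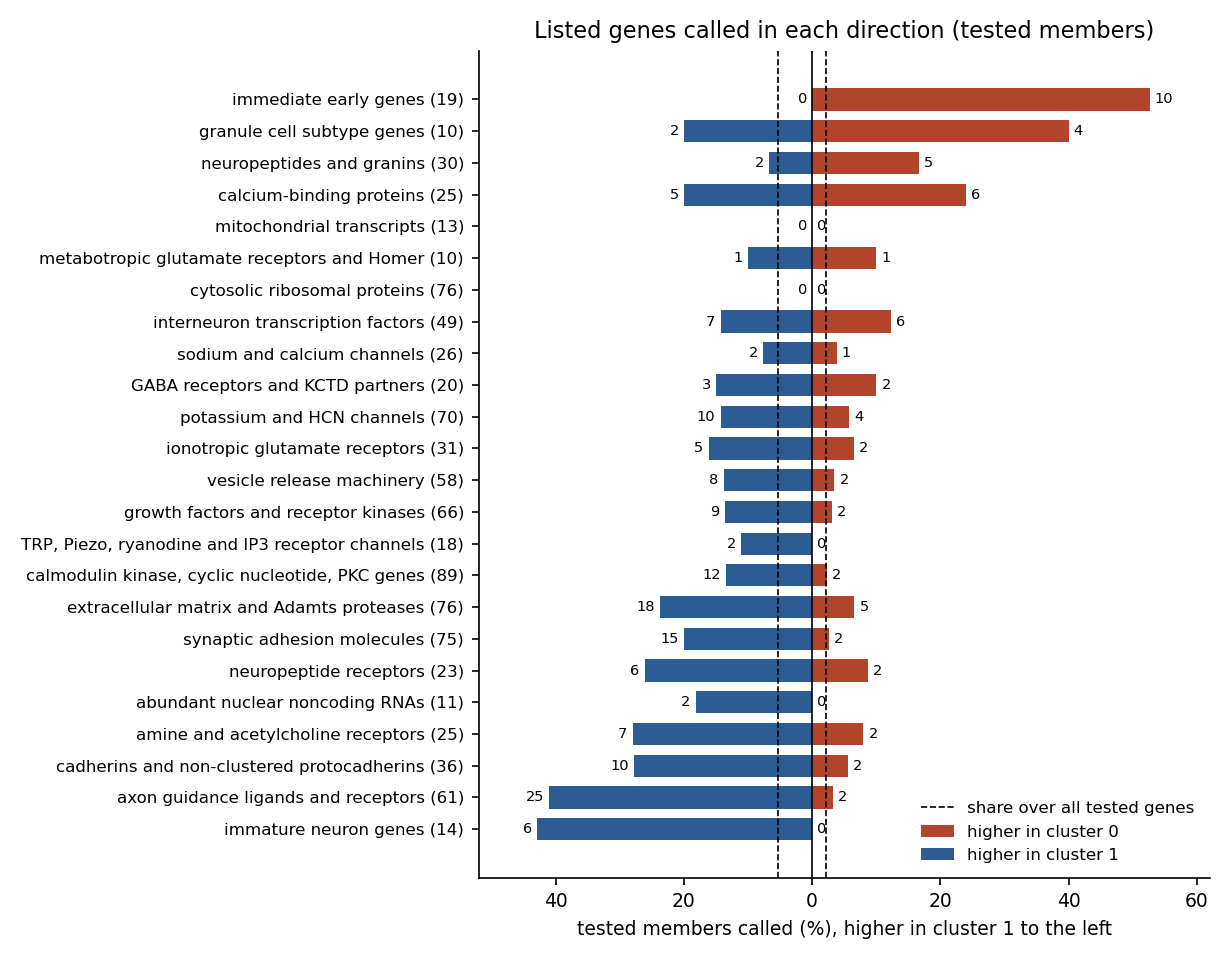
Percent of the tested members of 24 gene lists called higher in cluster 0 (red, right) and in cluster 1 (blue, left), for lists with at least 10 tested members; numbers beside the bars are counts of genes, numbers in parentheses are tested members, and dashed lines mark 2.18% and 5.28%, the shares over all tested genes. Immediate early genes reach 10 of 19 towards cluster 0, and axon guidance genes 25 of 61 towards cluster 1.

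Genes that make and load GABA were higher in cluster 0, most of them by less than the limit of size. Gad1, which encodes the larger form of the GABA-synthesising enzyme, held 1233, 996 and 909 CPM in cluster 0 and 527, 559 and 462 in cluster 1 (log2 fold change 1.01, SE 0.08, adjusted p = 1.4e-08) and was called, but its log2 fold change was 0.92 without mouse 1, under the limit of size. Gad2 (0.63), the vesicular transporter Slc32a1 (0.67) and Abat (0.41), which breaks GABA down, passed the adjusted p in the same direction without reaching the limit of size. Libraries of Gad1, Gad2, Slc32a1 and Abat did not overlap between clusters, and Slc6a11 did not pass the test (0.12, adjusted p = 0.60).

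Of 10 genes that mark subtypes of granule cells, 4 were higher in cluster 0 and 2 in cluster 1. Tpbg, a membrane glycoprotein, held 33.8, 26.8 and 22.2 CPM in cluster 0 and 5.56, 8.73 and 4.40 in cluster 1 (log2 fold change 1.97, SE 0.16, adjusted p = 2.6e-08). Calb2, the calcium-binding protein calretinin, held 322, 329.9 and 251 against 60.9, 101 and 73.5 (log2 fold change 1.93, SE 0.10, adjusted p = 9.4e-11). The libraries of both genes did not overlap, but Calb2 was far higher in cluster 7, at 2446 ± 500.0 CPM, and its share of thinned nuclei, 29.7% in cluster 0 and 19.9% in cluster 1 (without thinning 44.2% and 35.9%), did not stand clear of the 24.5% and 29.7% of clusters 16 and 20. The glutamate receptor gene Grm2 (1.20) and Pcp4 (1.09) were higher in cluster 0 too, Pcp4 with overlap between mice (1302, 1040.1 and 484 against 553, 567 and 214 CPM) and a higher level in cluster 0 within each mouse. Camk4 and Nrgn, the calmodulin-binding protein neurogranin, were higher in cluster 1, Nrgn with 421, 359.8 and 200.4 against 146, 155 and 54.8 CPM (log2 fold change -1.51, SE 0.09, adjusted p = 3.9e-10). Cpne4 (-0.69), Camk2a (-0.55), Penk (-0.11) and Synpr (0.16) were not called.

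Transcription factors of bulb interneurons were divided between the clusters, with 6 of 49 tested higher in cluster 0 and 7 higher in cluster 1. Etv1, an ETS-family factor, held 294, 214 and 256 CPM in cluster 0 and 101, 55.8 and 58.3 in cluster 1 (log2 fold change 1.86, SE 0.09, adjusted p = 5.4e-11). Sp8, a zinc-finger factor of young bulb interneurons, held 146, 129.8 and 126 against 54.03, 43.5 and 45.7 (log2 fold change 1.496, SE 0.07, adjusted p = 2.8e-11). Zic2, Rarb, Satb1 and Zic1 followed with log2 fold changes of 1.20, 1.07, 1.03 and 1.02, and none of these 6 overlapped. Foxp2, a forkhead factor, held 29.6, 39.3 and 35.03 CPM in cluster 1 and 8.23, 13.8 and 9.43 in cluster 0 (log2 fold change -1.69, SE 0.11, adjusted p = 1.6e-09). Npas3 (-1.54) and Tox (-1.53) lay near it, and Nfix (-1.34), Nfib (-1.30) and Tshz2 (-1.01) were also called towards cluster 1. The libraries of Tshz2 overlapped, and those of Nfib were spread within cluster 1, at 155, 68.4 and 94.6 CPM. Meis2 was at 3673, 3631 and 3956 CPM in cluster 0 and 3623, 3259 and 3252 in cluster 1 and did not pass the test (0.15, adjusted p = 0.14), and Pbx3 (-0.83) passed the adjusted p without reaching the limit of size.

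Axon guidance genes were higher in cluster 1 in 25 of 61 tested members and higher in cluster 0 in 2, Sema3c and Sema3e, with a median log2 fold change of -0.50. By the adjusted p alone 34 were higher in cluster 1 and 7 in cluster 0. Several ligands and their receptors were on the side of cluster 1 together. Of the Slit ligands and Robo receptors, Slit1 (-1.11), Slit2 (-1.67), Robo1 (-1.40), Robo2 (-1.39) and Robo3 (-4.30) were called. Robo2 held 1129.7, 720.0 and 949 CPM in cluster 1 and 375, 325 and 346 in cluster 0, with an adjusted p of 2.6e-10, whereas Robo3 rests on few UMIs, with 5.56, 12.2 and 6.79 against 0.208, 0.689 and 0.219 CPM. Ntn1, which encodes netrin-1, held 18.8, 11.7 and 13.6 against 1.25, 1.56 and 1.65 (log2 fold change -3.17, SE 0.21, adjusted p = 2.3e-09). The netrin receptors Unc5c, Unc5a and Unc5d had log2 fold changes of -2.45, -1.48 and -1.26, while Dcc, the attractive netrin receptor, was at 251, 209 and 288 CPM in cluster 1 and 216, 205 and 275 in cluster 0 and was not called (-0.10, adjusted p = 0.27).

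Class 3 semaphorins split between the clusters. Sema3a, at 85.01, 110.2 and 133 CPM in cluster 1 and 40.8, 36.1 and 39.8 in cluster 0 (log2 fold change -1.49, SE 0.10, adjusted p = 1.4e-09), and Sema3f (-1.02) were called in the direction opposite to Sema3c and Sema3e. The semaphorin receptor genes Plxna2 (-2.25), Plxnc1 (-1.87), Plxna4 (-1.62), Plxna1 (-1.45) and Plxnb1 (-1.39) were higher in cluster 1, and Plxna2 held 118, 107 and 114 CPM there and 25.02, 26.5 and 18.2 in cluster 0. The co-receptor genes Nrp1 (-0.16, adjusted p = 0.66) and Nrp2 (0.30, adjusted p = 0.062) did not pass the test. Of the Eph receptors, Epha6 held 2306, 2202 and 2486 CPM in cluster 1 and 1228, 1025 and 1104 in cluster 0 (log2 fold change -1.06, SE 0.07, adjusted p = 2.7e-09). Ephb1 (-2.39), Ephb2 (-1.68) and Epha7 (-1.22) were called in the same direction, and Epha5 did not pass the test (0.03, adjusted p = 0.75). None of the called guidance genes overlapped between clusters.

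Of 36 cadherins and protocadherins tested, 10 were higher in cluster 1 and 2 in cluster 0, and of 75 synaptic adhesion molecules 15 and 2, with a median log2 fold change of -0.37. Pcdh15, a protocadherin, held 1249, 1039 and 1369.9 CPM in cluster 1 and 335, 290.1 and 285 in cluster 0 (log2 fold change -1.999, SE 0.08, adjusted p = 2.5e-12). Cdh4 (362, 396 and 424 against 84.1, 97.04 and 84.9 CPM, -2.15) and Cdh8 (107, 139 and 145 against 13.03, 25.4 and 15.6, -2.80) are classical cadherins and were higher in cluster 1. Fat3, a giant cadherin, was called towards cluster 0 with 489, 436 and 525 CPM against 152, 129 and 145 (log2 fold change 1.77, SE 0.07, adjusted p = 3.6e-12), as was Cdh12 (1.16).

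Among synaptic adhesion genes, Ptprk, a receptor phosphatase that binds itself across cell contacts, held 565, 563 and 699 CPM in cluster 1 and 40.4, 75.1 and 77.3 in cluster 0 (log2 fold change -3.26, SE 0.12, adjusted p = 1.3e-12). Cntnap5b held 209.6, 216 and 203 against 23.04, 26.4 and 14.8 (log2 fold change -3.27, SE 0.10, adjusted p = 1.1e-13), and Il1rapl2 286, 184 and 313 against 19.6, 35.4 and 19.1 (log2 fold change -3.26, SE 0.20, adjusted p = 7.2e-10). Lsamp, which is abundant in both clusters, was still called, with 2188, 2197 and 2881 CPM in cluster 1 and 966, 895 and 940.2 in cluster 0 (-1.36). Astn2 (1.45) and Lrrtm3 (1.19) were the 2 members higher in cluster 0. The neurexin gene Nrxn3 had a log2 fold change of -0.39 and was not called.

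Extracellular matrix genes and Adamts proteases were higher in cluster 1 in 18 of 76 tested members and in cluster 0 in 5. Adamts5 held 114, 81.5 and 72.8 CPM in cluster 1 and 16.1, 15.9 and 10.2 in cluster 0 (log2 fold change -2.61, SE 0.10, adjusted p = 1.6e-12). Adamts17 (-2.25) and the matrix proteins Tnc (-2.16), Vcan (-1.96) and Acan (-1.85) were called in that direction. Genes that sulfate heparan chains divided. Hs3st4 led towards cluster 1, whereas Hs3st5 (419.7, 275 and 459 CPM in cluster 0 and 159.9, 107 and 161 in cluster 1, 1.42), Hs3st2 (1.23) and Hs6st3 (1.16) were higher in cluster 0. Lama3, a laminin chain, held 55.1, 69.8 and 104 against 16.4, 14.2 and 19.6 (log2 fold change 2.19, SE 0.11, adjusted p = 3.6e-11).

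Of 70 potassium and related channel genes and their partners tested, 4 were higher in cluster 0 and 10 in cluster 1. Kcnip4, a partner of A-type potassium channels, held 915, 1143 and 1236 CPM in cluster 1 and 189, 230.0 and 181 in cluster 0 (log2 fold change -2.45, SE 0.08, adjusted p = 5.5e-13), with no overlap. Kcnq3, a subunit of the M-type channel, held 223, 249 and 235 against 78.7, 73.3 and 53.7 (-1.79). Kcnn3 (-2.37), Kcnt2 (-2.04), Kcng2 (-2.01), Kcnk13 (-1.67), Kcnh4 (-1.51), Kcnmb2 (-1.19) and Kcnj6 (-1.001) were called in the same direction. Kcnma1, the large-conductance calcium-activated channel, was called towards cluster 0 with 1272, 1215 and 1415 CPM against 552, 547 and 496 (log2 fold change 1.29, SE 0.08, adjusted p = 1.2e-09), and its accessory subunit gene Kcnmb2 was one of those higher in cluster 1. Kcnd3 (1.20), Kcna4 (1.08) and Kcnh8 (1.34) were also higher in cluster 0. Kcnb2 did not pass the test (0.19), and Kcnd2 (0.78) and Kcnq5 (0.37) passed it below the limit of size.

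Of 26 voltage-gated sodium and calcium channel genes, 1 was called towards cluster 0 (Scn7a, 1.72) and 2 towards cluster 1 (Scn9a, -1.15, and Cacna1g, -1.002), the latter count being 1 without mouse 2, 1 without mouse 3 and 3 without mouse 1, and 0 without the mouse as a block. Of 18 TRP, Piezo, ryanodine and IP3 receptor genes, none was called higher in cluster 0 in the edgeR test with all mice (1 without mouse 1, while 4 had an adjusted p under 0.05) and 2 were higher in cluster 1. Itpr1, which releases calcium from internal stores, held 89.1, 73.8 and 69.7 CPM in cluster 1 and 28.98, 24.4 and 18.4 in cluster 0 (log2 fold change -1.69, SE 0.08, adjusted p = 3.4e-11). Ryr2, with 902, 968 and 1017 CPM in cluster 0 and 623, 722 and 715 in cluster 1, differed the other way below the limit of size (0.49).

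Receptor genes for glutamate and GABA were called in both directions, often within 1 family. Of 31 ionotropic glutamate receptor genes and auxiliary subunits, 2 were higher in cluster 0 and 5 in cluster 1. The kainate receptor subunit Grik3 held 151, 137 and 195 CPM in cluster 0 and 67.2, 37.4 and 60.7 in cluster 1 (log2 fold change 1.59, SE 0.10, adjusted p = 1.2e-09). Its relatives Grik4, with 18.3, 19.6 and 47.5 CPM in cluster 1 and 2.61, 3.05 and 3.73 in cluster 0 (log2 fold change -2.99, SE 0.17, adjusted p = 2.0e-10), and Grik1 (-1.36) were called towards cluster 1, and the 3 mice did not overlap for any of them. The AMPA receptor partner Shisa8 (1.51) was higher in cluster 0, and Cacng4 (-1.73), Cacng3 (-1.13) and Grid1 (-1.18) in cluster 1. Gria2 did not pass the test (-0.12), and Gria4 (0.52) and Grin2b (-0.26) passed it below the limit of size.

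Among 10 metabotropic receptor and Homer genes, Grm2 held 50.4, 37.9 and 45.8 CPM in cluster 0 and 17.6, 16.7 and 24.02 in cluster 1 (log2 fold change 1.20, SE 0.10, adjusted p = 4.9e-08), and Grm8 held 1425, 1114 and 1376 in cluster 1 and 604, 445 and 477 in cluster 0 (log2 fold change -1.36, SE 0.07, adjusted p = 7.5e-11). Without mouse 1, 2 of these genes were called towards cluster 0 in place of 1. Grm5 (-0.98) was just short of the limit of size. Of 20 GABA and glycine receptor genes and partners, 2 were higher in cluster 0 and 3 in cluster 1. Gabra5, the alpha-5 subunit, held 373, 368 and 404 CPM against 197, 191 and 144 (log2 fold change 1.11, SE 0.10, adjusted p = 7.0e-08), and Kctd16, an auxiliary subunit of GABA-B receptors, 91.5, 88.8 and 103 against 23.8, 28.9 and 26.4 (log2 fold change 1.79, SE 0.09, adjusted p = 4.3e-11). Gabrg3, a gamma subunit, held 523, 409 and 516 in cluster 1 and 138, 131 and 176 in cluster 0 (log2 fold change -1.70, SE 0.08, adjusted p = 2.1e-11), and Gabrg1 (-1.001) and the glycine receptor gene Glra2 (-3.29) were higher in cluster 1 as well.

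Neuropeptide and granin genes were called towards cluster 0 in 5 of 30 tested members and towards cluster 1 in 2 (4 without mouse 1 and 4 without mouse 3). Without the mouse as a block, 3 were called towards cluster 0. Scg2, a granin that is cut into secretoneurin, held 523, 412 and 422 CPM in cluster 0 and 99.3, 125 and 99.9 in cluster 1 (log2 fold change 2.04, SE 0.10, adjusted p = 3.6e-11). Trh, thyrotropin-releasing hormone (1.52), Npy (1.20), Nxph1 (1.10) and Nppc (1.73) were also higher in cluster 0. Tac1, the precursor of substance P, held 27.2, 28.96 and 43.3 CPM in cluster 1 and 1.36, 4.83 and 2.08 in cluster 0 (log2 fold change -3.24, SE 0.22, adjusted p = 3.4e-09), and Cbln2 (-2.50) was the other. Neither Scg2 nor Tac1 overlapped between clusters.

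Receptors for peptides, amines and acetylcholine were more often called towards cluster 1, most of the called genes being at low levels. Of 23 peptide receptor genes, 2 were higher in cluster 0 (1 without mouse 1) and 6 in cluster 1. Crhr1 and the delta opioid receptor gene Oprd1 (66.7, 49.6 and 48.1 CPM against 24.9, 28.5 and 23.8, 1.02) were the 2 of cluster 0. By the adjusted p alone 6 peptide receptor genes were higher in cluster 0 and 8 in cluster 1, against 19.7% and 17.4% of all tested genes. Among the most abundant, Oprm1 (0.33) and Vipr2 (0.69) passed towards cluster 0 below the limit of size, and Adcyap1r1 did not pass (0.002, adjusted p = 0.99). The summed level of the peptide receptor list was 835 to 881 CPM in cluster 0 and 621 to 714 in cluster 1. Trhr, the receptor of thyrotropin-releasing hormone, held 12.4, 21.8 and 42.2 CPM in cluster 1 and 5.42, 4.71 and 9.98 in cluster 0 (log2 fold change -1.96, SE 0.16, adjusted p = 2.6e-08), so that the peptide gene Trh and its receptor gene were called in opposite directions. Oxtr, the oxytocin receptor, had 8.10, 5.41 and 2.38 CPM in cluster 1 and 0.104, 0.934 and 0 in cluster 0 (-3.28), the last value being a library without UMIs. Of 25 receptors for acetylcholine and amines, 7 were higher in cluster 1 and 2 in cluster 0 (1 without mouse 1 and 1 without mouse 3). Hrh2, a histamine receptor, held 16.7, 18.3 and 27.97 CPM in cluster 0 and 4.29, 4.56 and 7.15 in cluster 1 (log2 fold change 1.98, SE 0.14, adjusted p = 3.8e-09), while its relative Hrh1 (-2.71) was called towards cluster 1 from at most 3.30 CPM. The adrenergic receptor genes Adra2c (-2.54), Adrb1 (-2.37) and Adra2a (-1.90) were higher in cluster 1 and Adrb3 (1.01) in cluster 0. Chrm2, at 511, 512 and 511 CPM in cluster 0 and 386, 399 and 365 in cluster 1, was below the limit of size (0.41), and so was Htr1f (-0.60).

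Of 89 kinase, cyclic nucleotide and phospholipid signalling genes, 2 were higher in cluster 0 (1 without mouse 3) and 12 in cluster 1. Rgs6, which shortens G-protein signals, held 698, 847 and 737 CPM in cluster 1 and 97.2, 151 and 106 in cluster 0 (log2 fold change -2.70, SE 0.08, adjusted p = 8.4e-14). Adcy8, a calcium-stimulated adenylyl cyclase, was called towards cluster 0 with 176, 198 and 261 CPM against 75.3, 84.9 and 101 (log2 fold change 1.27, SE 0.07, adjusted p = 2.3e-10). Prkg1 did not pass the test (-0.09, adjusted p = 0.36). Of 58 vesicle release genes, 2 were higher in cluster 0 and 8 in cluster 1. The priming factors Unc13b (109, 83.6 and 112 CPM in cluster 1 and 11.2, 16.2 and 10.97 in cluster 0, -2.86) and Unc13c (-2.68) were higher in cluster 1. Stxbp6, a syntaxin-binding protein, held 1218, 1168 and 1248 CPM in cluster 0 and 502, 524 and 501 in cluster 1 (log2 fold change 1.25, SE 0.07, adjusted p = 2.6e-10), and Syt10, a calcium sensor of secretory vesicles, 235, 250.2 and 371 against 119.7, 109.7 and 134 (1.21). By the adjusted p alone, 24 of the release genes were higher in cluster 0, among them Syt1 (0.65) and Snap25 (0.22), and 15 in cluster 1, against 19.7% and 17.4% of all tested genes.

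Among 66 growth factors and receptor kinases, 9 were higher in cluster 1 and 2 in cluster 0 (4 without mouse 2). Next to Nrg3, Fst, which encodes follistatin, held 33.5, 23.03 and 26.8 CPM in cluster 1 and 3.54, 5.78 and 4.06 in cluster 0 (log2 fold change -2.46, SE 0.18, adjusted p = 5.2e-09), and Tgfb2 held 22.2, 18.4 and 18.2 against 3.44, 3.74 and 3.73 (-2.40). Egfr and Fgf16 (1.53) were higher in cluster 0. Of 25 calcium-binding proteins, 6 were higher in cluster 0 and 5 in cluster 1. Cpne8, a copine, held 202, 202 and 243 CPM in cluster 0 and 55.8, 49.3 and 56.8 in cluster 1 (log2 fold change 1.997, SE 0.08, adjusted p = 1.8e-12). Necab3 (1.33) was called with it, and its relative Necab2 (-1.36) in the other direction.

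Immediate early genes, which neurons transcribe within minutes of activity or handling, were higher in cluster 0. Of 19 tested, 10 were called towards cluster 0 and none towards cluster 1. By the adjusted p alone in edgeR, 18 were higher in cluster 0 and 1, Bdnf (-0.71), was higher in cluster 1. Without the mouse as a block, 8 passed the adjusted p towards cluster 0 and 7 were called, and Fos, Nr4a1 and Fosb lost the call (adjusted p = 0.063, 0.059 and 0.10). The median log2 fold change was 1.01, against 0.01 over all tested genes. Fos held 27.3, 69.6 and 92.3 CPM in cluster 0 of mice 1, 2 and 3 and 7.47, 23.7 and 29.5 in cluster 1 (log2 fold change 1.63, SE 0.09, adjusted p = 2.0e-10). Across mice the clusters overlapped, as cluster 0 of mouse 1 lay below cluster 1 of mouse 3, but within each mouse cluster 0 was higher. Egr1 held 147, 209 and 245 against 70.7, 97.9 and 76.1 (log2 fold change 1.26, SE 0.10, adjusted p = 2.6e-08). Junb held 151, 156 and 190.1 against 64.7, 84.6 and 97.2 (log2 fold change 1.01, SE 0.08, adjusted p = 9.7e-09), and Nr4a1 43.8, 63.7 and 137 against 13.7, 26.7 and 43.6 (log2 fold change 1.47, SE 0.10, adjusted p = 1.6e-09). For these 3 genes the clusters did not overlap. Ier2 (1.77), Nr4a2 (1.48), Fosb (1.32), Npas4 (1.25), Egr4 (1.24) and Arc (1.06) were the other called members. Homer1 (0.29), Egr3 (0.32), Btg2 (0.49), Jun (0.49), Jund (0.64), Nr4a3 (0.77), Egr2 (0.89) and Fosl2 (0.92) passed the adjusted p below the limit of size. In thinned nuclei Fos had a UMI in 13.1% of cluster 0 and 5.05% of cluster 1 (without thinning 23.6% and 10.1%), against 3.45% and 7.69% in clusters 16 and 20.

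**Figure D5:**
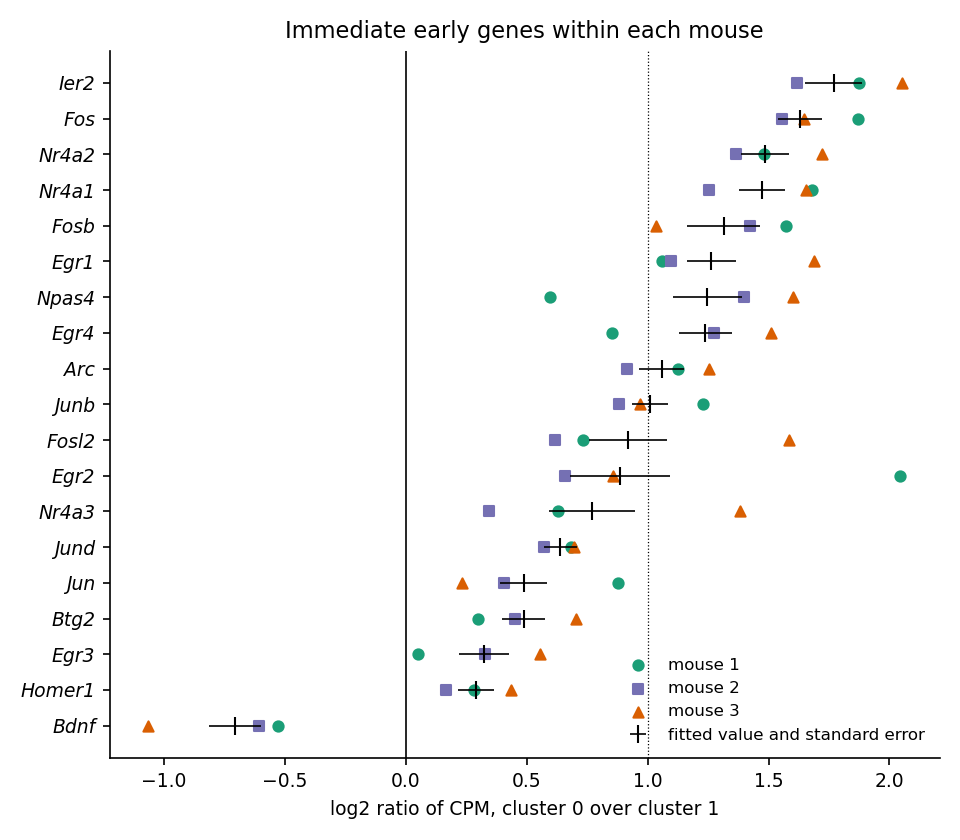
Log2 ratio of CPM in cluster 0 over cluster 1 within each mouse (coloured points) for the 19 immediate early genes, with the fitted log2 fold change and its standard error (black); the dotted line marks the limit of size, 1. All points of 18 genes lie above 0, and Bdnf lies below 0 in all 3 mice.

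Other quantities moved in the same direction as these genes, and their part in the result was not tested. The viral transgene eGFP held 74.00, 125 and 119.6 CPM in cluster 0 and 13.03, 46.03 and 21.6 in cluster 1 (log2 fold change 1.93, SE 0.15, adjusted p = 1.6e-08), with no overlap, and had a UMI in 21.9% of thinned nuclei of cluster 0 and 9.50% of cluster 1 (without thinning 38.1% and 20.2%), against 11.9% and 13.2% in clusters 16 and 20. Of 7 heat shock genes, 5 had an adjusted p under 0.05 towards cluster 0, against 19.7% of all tested genes, with a median log2 fold change of 0.65, and 1 was called, Hspa1a (1.09; none without mouse 1 and 2 genes without mouse 2). Hspa8, at 927, 709.5 and 596 CPM in cluster 0 and 641, 466 and 334 in cluster 1, had a log2 fold change of 0.65. Of 76 cytosolic ribosomal protein genes none was called, but 59 had an adjusted p under 0.05, all towards cluster 0, with a median of 0.43, and of 13 mitochondrial transcripts 8 did so, with a median of 0.26. Malat1, a nuclear noncoding RNA, did not pass the test (0.04, adjusted p = 0.74).

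The promoters of the immediate early genes are shown because these genes moved together. The sequences are 120 bases upstream of the start of 3 called genes, 5′ to 3′, from RefSeq (GRCm38.p6), with the motif TGACG or its reverse complement CGTCA, the core of the site bound by the activity-regulated factor CREB, and TATAAA in capitals. These 3 were chosen because they carry one of the motifs, and the window of the called gene Npas4 holds none of them. Fos lies at chr12:85473770-85473889 on the plus strand, Nr4a1 at chr15:101266726-101266845 on the plus strand, and Junb at chr8:84978749-84978868 on the minus strand.
Fos: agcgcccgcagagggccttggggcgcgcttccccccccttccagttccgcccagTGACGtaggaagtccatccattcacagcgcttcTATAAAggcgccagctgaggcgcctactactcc
Nr4a1: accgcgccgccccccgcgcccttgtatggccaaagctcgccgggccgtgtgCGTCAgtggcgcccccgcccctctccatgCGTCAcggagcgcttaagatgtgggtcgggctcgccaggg
Junb: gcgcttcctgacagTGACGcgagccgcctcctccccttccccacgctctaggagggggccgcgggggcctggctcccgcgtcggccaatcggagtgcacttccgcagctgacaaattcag

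Of the 19 genes, 15 had 26 promoters in the table used, and 250 bases upstream of each start were searched on both strands. TGACG was found in 14 of the 26 promoters (53.8%), in 12 of the 15 genes, against 17.8% of all 32851 promoters. The full palindrome TGACGTCA, which contains TGACG, was in 1 promoter, that of Btg2, against 1.55% of all promoters, and TATAAA was in those of Nr4a2 and Fos, against 12.4%. The CArG box, the site of serum response factor, was in 4 promoters of 1 gene, Egr2, against 1.47%. A match describes letters in these windows and no binding, and several promoters of 1 gene share sequence.

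Immature neuron genes were higher in cluster 1 in 6 of 14 tested members and in none towards cluster 0 in the edgeR test, with a median log2 fold change of -0.88. By the adjusted p alone 11 were higher in cluster 1 and none in cluster 0. Igfbpl1, a gene of migrating bulb neurons, held 112, 41.6 and 46.8 CPM in cluster 1 and 14.5, 12.8 and 10.6 in cluster 0 (log2 fold change -2.20, SE 0.16, adjusted p = 5.5e-09). Sox11, a transcription factor of young neurons, held 113, 78.5 and 80.7 against 33.9, 32.1 and 21.8 (log2 fold change -1.58, SE 0.09, adjusted p = 4.8e-10). Prokr2, a receptor that guides migration into the bulb, held 30.8, 15.3 and 15.2 against 3.86, 2.47 and 3.18 (log2 fold change -2.67, SE 0.17, adjusted p = 1.1e-09). The clusters did not overlap for any of these genes, but cluster 1 of mouse 1 stood above the other mice for most of them. Stmn2 held 148, 73.8 and 66.4 CPM in cluster 1 and 37.5, 44.1 and 30.6 in cluster 0 (log2 fold change -1.24, SE 0.15, adjusted p = 3.7e-06), and without mouse 1 its log2 fold change was -0.88, under the limit of size. Cd24a (22.6, 5.54 and 5.87 CPM in cluster 1, -1.96) and St8sia2 (-2.78) were the other called members, and without mouse 1 the number called was 5. Dcx was at 449.9, 505 and 529 CPM in cluster 0 and 427, 443 and 465 in cluster 1 and did not pass the test (0.15, adjusted p = 0.090), nor did the proliferation gene Mki67 (0.24, adjusted p = 0.57).

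Of 4 tested markers of periglomerular cells, 3 were called towards cluster 0, of which Trh lost the call without the mouse as a block. Th, which encodes tyrosine hydroxylase, the first enzyme of dopamine synthesis, held 55.3, 47.8 and 43.98 CPM in cluster 0 and 6.20, 11.9 and 11.7 in cluster 1 (log2 fold change 2.22, SE 0.15, adjusted p = 2.2e-09), and Trh and Nr4a2 were called with it. Slc18a2, the vesicular monoamine transporter, held 5.11, 3.96 and 4.61 CPM in cluster 0 and 6.20, 4.24 and 5.87 in cluster 1 and did not pass the test (-0.22, adjusted p = 0.44). Ddc, with at most 1.24 CPM in any library, Slc6a3, with at most 0.228 CPM, and Calb1, with at most 1.24 CPM, were near 0 in both clusters. Th was found in 11.2% of thinned nuclei in cluster 0 and 3.37% in cluster 1 (without thinning 22.4% and 7.30%), against 4.21% and 0% in clusters 16 and 20.

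Markers of other cell types were then counted, to be read against the 7.46% of all tested genes called in either direction. None of 8 projection neuron genes, 8 oligodendrocyte genes and 4 microglia genes was called in the edgeR test, and of these 20 genes 1, Reln (-0.44), had an adjusted p under 0.05. Of 7 astrocyte genes 1 was called, Slc1a3, a glutamate transporter, with 69.3, 50.9 and 63.8 CPM in cluster 1 and 20.6, 27.9 and 23.7 in cluster 0 (log2 fold change -1.27, SE 0.12, adjusted p = 2.0e-07). Slc4a4 (-0.68) and Slc1a2 (-0.73) passed the adjusted p towards cluster 1 below the limit of size, with no overlap, while Aqp4 (-0.30), Gja1 (-0.09) and Aldh1l1 (0.12) did not pass the test. Vcan, listed for oligodendrocyte precursors, was called towards cluster 1, with Pdgfra at most 1.43 CPM and Cspg4 at most 0.159 CPM in any library. Npy, listed for ensheathing glia, was called towards cluster 0, with 84.4, 61.95 and 34.9 CPM against 28.4, 33.3 and 12.8 (log2 fold change 1.20, SE 0.11, adjusted p = 2.2e-07), while Frzb (0.07) and Fabp7 (0.00) did not pass the test and Sox10 was below 1.11 CPM.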

How the data were processed

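Nuclei of 3 mice were measured by 10x 3′ snRNA-seq. The deposited matrices hold raw UMI counts per gene and nucleus, made by the authors with Cell Ranger 3.0.2 on mm10/GRCm38 (submitters' processing notes), and the deposited table gives each nucleus its mouse, cluster, totals and percent of mitochondrial UMIs. The authors merged the mice by canonical correlation analysis in Seurat before clustering. The retained nuclei held at least 1001 genes and at most 4.575 percent mitochondrial UMIs. No doublet caller is named in the sources used here. Whether intronic reads were counted, and by strand, is not given in the sources used here. The table's 7 other numeric columns were not used.

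Cluster numbers were taken as deposited, and counts were summed per mouse and cluster, giving 6 libraries. The model was edgeR 4.0.16 (R 4.3.3) with TMM factors, filterByExpr, a quasi-likelihood fit and the mouse as a block, since both clusters of a number come from 1 mouse. Deviations from the cluster means correlated at 0.369, 0.330 and 0.390 within mice 1, 2 and 3, across genes. A call required a Benjamini-Hochberg adjusted p below 0.05 and a log2 fold change beyond 1 in size. The study itself tested single nuclei. In simulated data of 14407 genes, the fit recovered 99% of changes of 1.5 and 100% of changes of 2 on the log2 scale, with 1 false call. The simulated mice shared 1 profile and no changes near the limit of size were simulated, so that this says nothing about calls near that limit. CPM are counts per 1000000 UMIs of a library. Exact binomial intervals (Clopper-Pearson, 95%) came from scipy 1.17.1 in Python 3.11.15.

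Named genes were, in each direction, the 12 called genes with the largest change among those with the same direction in all mice and at least 20 CPM in the higher cluster, the leading and most abundant members of each of 34 gene lists, Adamts19, Camk4 and Sv2c, and the members of the GABA, subtype and cell type lists. Further list members were named after their values were seen. The clusters, lists and tests were chosen with earlier results of these data known. Some genes are not reported here. Gene identifiers were matched to GENCODE M21 (31011 of 31055). Alternatives were DESeq2 1.42.0, other scaling, filters and thinning, no block, and leaving out each mouse.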

Additional observations from a re-analysis of the deposited data

How the results depend on the processing

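The counts of genes called, 315 towards cluster 0 and 763 towards cluster 1, stayed within 1.5 times of these values under 12 of the 13 alternatives, and no named gene changed direction. Under a filter of 10 CPM in 3 libraries 174 and 379 genes were called. Leaving out a mouse gave 320 to 394 and 771 to 835 genes, a share of cluster 0 between 61.8% and 62.9%, and a log2 ratio of UMIs per nucleus, cluster 0 over cluster 1, between -0.078 and -0.0501. With means in place of medians that ratio was -0.096. Without the pairing by mouse (no block), 279 and 679 genes were called, and 146 of the 1078 genes lost the call, among them Pcp4, Scn9a, Trh, Nppc and Tshz2 (adjusted p = 0.12, 0.09, 0.063, 0.052 and 0.059), the immediate early genes Fos, Nr4a1 and Fosb (0.063, 0.059 and 0.10), and Cacna1g (-0.999) and Sema3f (-0.996), which fell under the limit of size. With nuclei thinned to 3000 UMIs, 241 and 575 genes were called, and Hspa1a (0.89), Npy (0.79) and Nxph1 (0.92) fell under the limit of size, as did Gad1 (0.98) under the filter of 10 CPM. Draxin, Grm5 and Tubb2b, not called with all nuclei and mice, were called under 2, 2 and 1 of the alternatives. The cause was not tested. Depth limits genes with few UMIs in the libraries of mice 1 and 3, and shares of single nuclei near those of clusters 16 and 20 cannot be told from background.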

Other observations

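Of 11 tested noncoding RNAs that are abundant in nuclei, 2 were higher in cluster 1 (1 without mouse 3) and none in cluster 0 in the edgeR test (1 without mouse 1 and 1 without mouse 2). Miat held 10.3, 5.67 and 8.80 CPM in cluster 1 and 2.61, 1.33 and 1.75 in cluster 0 (log2 fold change -2.12, SE 0.22, adjusted p = 8.0e-07), and Rmst 89.1, 73.4 and 135 against 44.8, 39.7 and 48.8 (log2 fold change -1.10, SE 0.09, adjusted p = 2.3e-08). Dlx6os1 (0.82), higher in cluster 0, and Meg3 (-0.45) and Kcnq1ot1 (-0.44), higher in cluster 1, passed the adjusted p below the limit of size.

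Within cluster 1, in nuclei thinned to 3000 UMIs, Ankfn1 had a UMI in 56.5% of nuclei with a UMI of Klhl1 and in 29.6% of those without. Nrg3 had one in 70.8% of nuclei with Klhl1 and 60.8% without. Within cluster 0, Sema3e was found in 31.8% of nuclei with Sema3c and in 17.7% of those without, and Pparg in 52.5% and 46.0%. Other pairs of leading genes went in either direction, so that the pairs above do not stand for all of them. In cluster 1, Ankfn1 was found in 28.5% of nuclei with 1700011I03Rik and in 41.1% of those without. In cluster 0, Rai14 was found in 15.5% of nuclei with Scgn and in 20.6% of those without. These shares are over the nuclei of all 3 mice together and were not tested.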
